A study of Mus musculus with 19 samples.

Results

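The myogenic regulatory factors Myod1, Myog, Myf5 and Myf6, the satellite cell factor Pax7 and the adhesion molecules Cdh15 and Ncam1 were read in fast hind leg muscle of mice with and without a toxic CTG repeat. The members were all probe sets annotated to only 1 gene with 1 of these 7 symbols, which gave 15 of the 45101 probe sets on the array, for 7 of 18193 genes. Of these, 7 were for Ncam1, 2 each for Myod1 and Pax7 and 1 each for Myog, Myf5, Myf6 and Cdh15.

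The muscle was the extensor digitorum longus (EDL), which lifts the toes and consists mostly of fast fibres, from FVB mice aged 19 weeks. Muscle of 9 wild-type samples was compared with that of 10 samples from the transgenic HSALR line 20 b, a single transgenic line. HSALR mice carry a human skeletal actin gene with a long untranslated CTG repeat, expressed in muscle fibres from the actin promoter, and are used as a model of myotonic dystrophy. Each sample was measured on 1 Affymetrix array, the labels name no separate animals, and the p-values thus rest on a spread between samples that may be technical only.

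The 4 myogenic regulatory factors are basic helix-loop-helix (bHLH) proteins, which pair with the widely expressed E proteins and bind the E-box in the regulatory regions of muscle genes. Myf5 and Myod1 commit cells to the muscle lineage, Myog drives the terminal differentiation of myoblasts and is raised in muscle fibres that have lost their nerve, and Myf6 (also called MRF4) is the main member of the family in adult fibres. Pax7 marks satellite cells, the stem cells that lie between the fibre and its basal lamina, while Cdh15 (M-cadherin) and Ncam1 (neural cell adhesion molecule) are surface proteins of these cells. Ncam1 is also made by nerve and Schwann cells, at the neuromuscular junction and by denervated or regenerating fibres.

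The promoter of Myog is shown because Myog was the 1 regulatory factor that passed the test, and that of Cdh15 because it holds E-boxes as well and its signal did not pass. Both are the 250 bases before the RefSeq gene start (GRCm38.p6), with capitals for the E-box CANNTG, the MEF3 site TCAGGTT and the last letters TATTTAT of the MEF2 site known in this promoter, searched on both strands.
Myog, chr1:134289754-134290003, plus strand: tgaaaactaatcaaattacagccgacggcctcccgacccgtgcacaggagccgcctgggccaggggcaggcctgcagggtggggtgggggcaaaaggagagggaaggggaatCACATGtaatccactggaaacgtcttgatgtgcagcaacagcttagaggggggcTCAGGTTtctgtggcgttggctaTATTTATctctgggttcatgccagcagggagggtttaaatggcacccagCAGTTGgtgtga
Cdh15, chr8:122848124-122848373, plus strand: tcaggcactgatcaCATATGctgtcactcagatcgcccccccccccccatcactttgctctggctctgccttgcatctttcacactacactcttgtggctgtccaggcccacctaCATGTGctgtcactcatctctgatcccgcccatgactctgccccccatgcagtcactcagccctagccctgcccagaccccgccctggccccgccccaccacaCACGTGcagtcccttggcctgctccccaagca
The Myog window held 2 E-boxes, the nearer one ending 7 bases before the gene start, with 1 MEF3 and 1 MEF2 match between them. The Cdh15 window held 3 E-boxes and neither of the other motifs, and the windows of Myf5 and Pax7 held none of the 3 motifs. Of 32851 windows of this length, 66.2% held at least 1 E-box, 31.8% at least 2 and 12.2% at least 3. The MEF3 letters were in 3.49% and the MEF2 letters in 5.17%, and none of the motifs overlapped another in the Myog window. The sites are matches of letters, and no binding was measured.

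In HSALR muscle, Myog rose 1.80-fold and Ncam1 rose at 2 of its 7 probe sets, 1.87-fold and 1.53-fold from wild-type means near background, whereas no member fell. Myod1, Myf6 and Cdh15 did not pass the test. Myf5 and Pax7 gave signals near background in both genotypes. Signals were used as log2(value + 16), and the brighter probe sets, with a mean of at least 6.09 on this scale (the median probe set), were tested with limma, with adjusted p-values over all 22519 of them and a threshold of 0.05. By this filter 7 of the 15 member probe sets, from 5 of the 7 genes, were tested. Of the 7 tested, 3 were called higher and 0 lower (0 lower also at an unadjusted p under 0.05). Ncam1 1439556_at passed the filter only through HSALR, with a log2 mean of 5.79 in wild type and 6.69 in HSALR, so the count of 3 is a description. For comparison, 2.86% of all tested probe sets were called higher and 2.2% lower. After quantile normalization the members gave the same counts, 3 and 0, where 6.47% of all tested probe sets were called higher and 8.37% lower. No tested member probe set had every HSALR sample above every wild-type sample or the reverse, as 0.36% and 0.289% of all tested probe sets had. Folds are on the log2(value + 16) scale and understate the change of dim genes.

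The files hold no detection calls, so background was read from 86 probe sets of olfactory, vomeronasal and taste receptor genes, which are known mainly from sensory tissue. A probe set was called near background in a genotype when its mean lay at or below the 95th percentile of these, a log2 value of 6.46 in wild type and 6.60 in HSALR (signals of 71.9 and 81.0). Of the 15 member probe sets, 9 were near background in both genotypes: those of Myf5 and Pax7, the second one of Myod1 and 5 of Ncam1. The Ncam1 probe sets 1450437_a_at and 1439556_at were near background in wild type and above it in HSALR. The single probe sets of Myog, Myf6 and Cdh15 and the brighter one of Myod1 lay above background in both. With the 99th percentile in place of the 95th, 11 were near background in both genotypes, the other two being the 2 called probe sets of Ncam1.

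Facts that bear on all members are the brightness of the arrays, the RNA and 2 samples that stood apart. The median log2 signal of the arrays over the 22519 tested probe sets ranged from 7.30 to 7.96 without passing a test between genotypes (exact permutation p = 0.523, 2-sided, adjusted p = 0.572 over 3 measures). For the control probe sets of actin the log2 ratio of 3' to 5' signal was 0.104 ± 0.082 (SD) in the 9 wild-type samples and 0.0038 ± 0.065 (SD) in the 10 HSALR samples (exact permutation p = 0.0098, 2-sided, adjusted p = 0.0294). Gapdh, the other control, showed no such difference between the genotypes. Its ratio was -0.229 ± 0.027 (SD) in wild type and -0.223 ± 0.020 (SD) in HSALR (0.572 after adjustment in the same permutation test). The most alike arrays were HSALR replicates 9 and 10 (Spearman correlation 0.978 across probe sets), while the other samples had a best match of 0.953 to 0.969. The 8 fast fibre markers were all tested and above background, and their summed signal spanned 101435 to 115959 in wild type and 92339 to 112578 in HSALR, so the tissue carried the markers of its label.

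Myog, which drives myoblast differentiation, gave signals from 92.6 to 472 in wild type (median 214) and from 192 to 604 in HSALR (median 473). The genotypes overlapped: 5 of 10 HSALR samples exceeded the whole wild-type range and 9 of 10 the wild-type median, with HSALR replicate 6 the lowest at 192 and wild-type replicate 9 the highest control at 472. The log2 fold was 0.85 ± 0.23 (SE, n = 10 against 9), with a 95% interval of 0.37 to 1.33 (limma adjusted p = 0.0332). In whole muscle, more cells with a transcript and more RNA per cell cannot be told apart, here or for the other members.

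The call of Myog lay close to the threshold. It was lost without wild-type replicate 1, 3, 4, 6 or 7 or without HSALR replicate 2, 3, 8, 9 or 10, each left out alone, with a limma adjusted p of 0.0102 to 0.065 over the 19 such fits and log2 folds of 0.71 to 0.98. Without both HSALR replicates 9 and 10 the log2 fold was 0.76 ± 0.24 (limma adjusted p = 0.093). The fold was 0.80 after quantile normalization (limma adjusted p = 0.022) and 0.86 with the mean 3'/5' ratio of actin and Gapdh added to the model (0.049).

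Myod1, the factor that commits cells to muscle, gave signals of 507 to 987 in wild type (median 742) and 400.1 to 961 in HSALR (median 623) at its brighter probe set, 1418420_at. The lowest samples of all were HSALR replicates 9 and 10, at 400.1 and 401, followed by HSALR replicate 1 at 434, and the genotypes otherwise covered the same range. The log2 fold of -0.25 ± 0.17 did not pass (95% interval -0.60 to 0.095, limma adjusted p = 0.416), and it was -0.094 ± 0.15 without replicates 9 and 10. The SD of its log2 signal was 0.48 in HSALR (n = 10) and 0.26 in wild type (n = 9), a difference in spread that was not tested. The second probe set, 1447675_x_at, had medians of 19.1 in wild type and 15.1 in HSALR and no signal above 35.6, near background in both.

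The signals of Myf6, the factor of adult fibres, ran from 1891 to 2379 in wild type (median 2175) and from 1716 to 2669 in HSALR (median 2164). Of the HSALR samples, 4 lay above and 2 below the whole wild-type range, so the means were alike while the range was wider (log2 SD 0.23 against 0.10). The log2 fold was 0.008 ± 0.093 (limma adjusted p = 0.974), and its 95% interval of -0.19 to 0.20 bounds the difference on the scale as deposited, where the sign turned after quantile normalization (-0.057) and after median centring (-0.040). Myf6 and Myf5 are neighbouring genes on chromosome 10 in the GRCm38.p6 annotation, with no other coding gene start between them.

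Cdh15, the cadherin at the contact of satellite cell and fibre, read 138 to 219 in wild type (median 162) and 106 to 194 in HSALR (median 167). The genotypes overlapped, and HSALR replicate 1 alone lay below every wild-type sample. The log2 fold was -0.03 ± 0.10 (95% interval -0.25 to 0.19, limma adjusted p = 0.899), and with array weights it was 0.018.

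**Figure D1:**
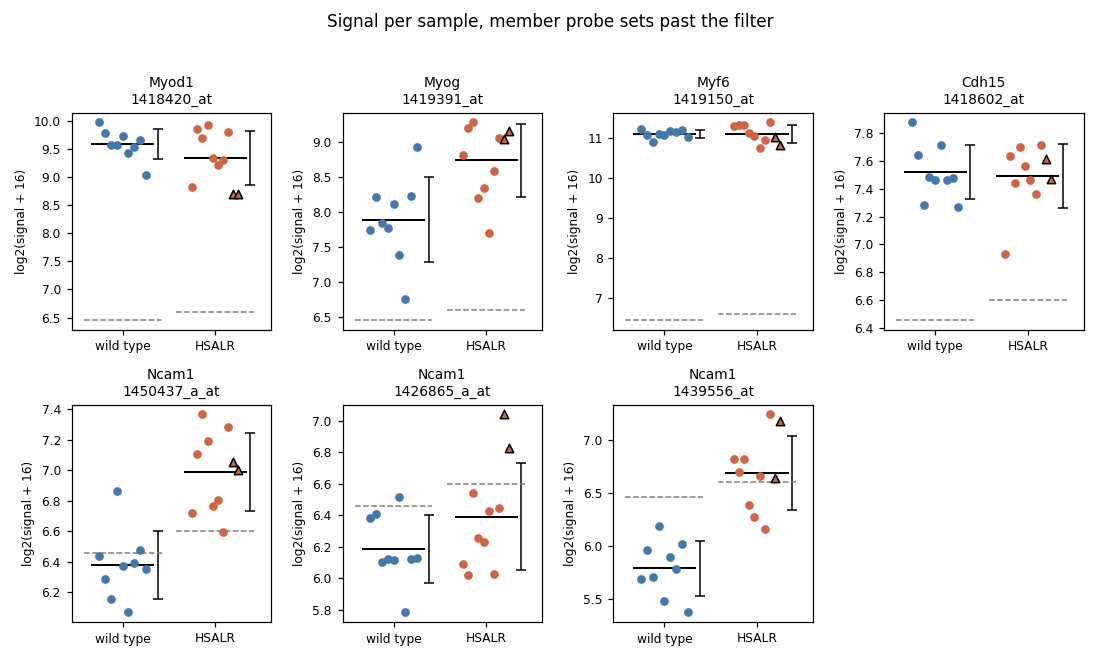
Signal of each sample as log2(signal + 16) at the 7 member probe sets past the filter, with 1 point per sample, the group mean as a line and the SD as a bar; triangles are HSALR replicates 9 and 10, and dashed lines the near-background level of each genotype (6.46 and 6.60). The y axes differ between panels. Myog and the Ncam1 probe sets 1450437_a_at and 1439556_at lie higher in HSALR, and Myod1 is lowest in the triangles.

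Ncam1, the adhesion molecule, rose at 2 of the 3 probe sets that were tested. At 1450437_a_at the signals were 51.3 to 101 in wild type (median 66.8) and 80.8 to 149 in HSALR (median 114). All 10 HSALR samples exceeded the wild-type median and 6 exceeded every wild-type sample, of which replicate 4 was the highest. The log2 fold was 0.61 ± 0.11 (limma adjusted p = 0.0020).

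At 1439556_at the signals of Ncam1 were 25.5 to 56.7 in wild type (median 38.8) and 55.2 to 135 in HSALR (median 86.4). The groups nearly separated, since 9 of 10 HSALR samples exceeded the whole wild-type range and only HSALR replicate 7 fell below the highest control, wild-type replicate 4. The log2 fold was 0.90 ± 0.14 (limma adjusted p = 2.61e-04). In the fit without a filter, where passing it plays no part, the limma adjusted p was 8.12e-04 here and 0.0049 at 1450437_a_at. These 2 calls held in each of 19 fits that left out 1 sample and in the 12 other alternatives that tested them. Without HSALR replicates 9 and 10 the log2 folds were 0.60 and 0.84 (limma adjusted p = 0.0065 and 8.41e-04).

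The remaining Ncam1 probe sets showed another pattern. At 1426865_a_at the signals were 39.2 to 75.4 in wild type and 48.9 to 115.5 in HSALR, with HSALR replicates 9 and 10 the highest at 115.5 and 97.5. Its log2 fold of 0.20 ± 0.13 did not pass (95% interval -0.066 to 0.47, limma adjusted p = 0.396) and was 0.068 without these 2 samples. At 1426864_a_at, which is below the filter, the same 2 samples again read highest, at 71.3 and 58.5, compared with 5.16 to 46.6 for the remaining 8 and 6.61 to 21.4 in wild type. In the fit without a filter its log2 fold was 0.52 ± 0.24 (limma adjusted p = 0.327), and 0.26 without the 2 samples. The other three, 1425126_at, 1450438_at and 1421966_at, stayed at or below a signal of 46.4 in every sample and did not pass (limma adjusted p from 0.693 to 0.964 in the fit without a filter).

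Whether the 3 tested probe sets of Ncam1 differed in their fold was asked with limma's diffSplice, which here took each probe set as an exon. They did not pass as deposited (adjusted p = 0.0655 over 4782 genes) and passed after quantile normalization (adjusted p = 0.0089). Of these 3, 1439556_at had the largest fold and passed the filter only through HSALR (log2 mean 5.79 in wild type and 6.69 in HSALR). Both results are therefore a description. Ncam1 is made in several spliced forms, and which forms each probe set reads is not known here.

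**Figure D2:**
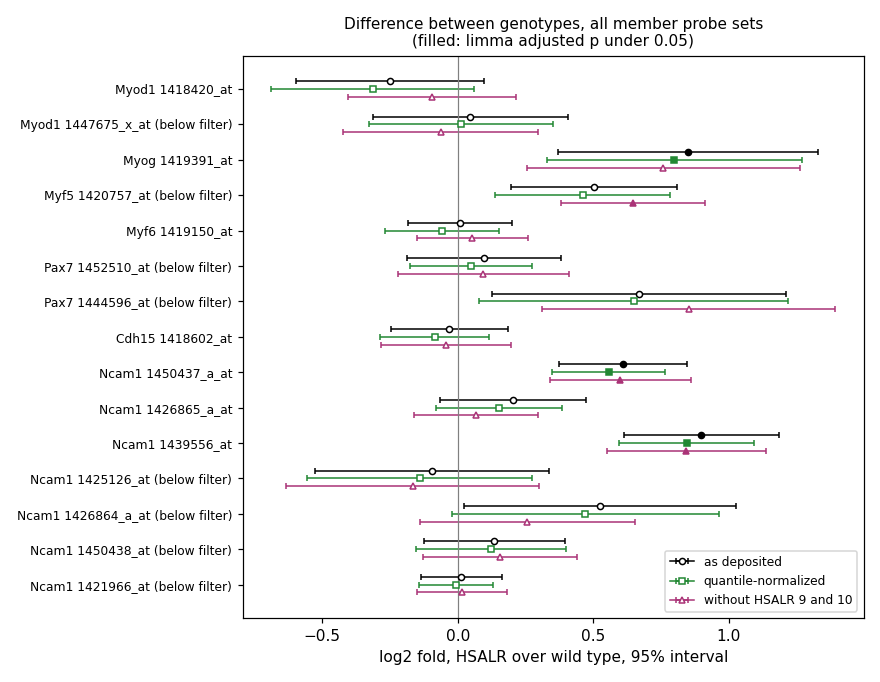
Log2 fold of HSALR over wild type with its 95% interval (x axis) for all 15 member probe sets (y axis), as deposited, after quantile normalization and without HSALR replicates 9 and 10; filled points passed limma at an adjusted p of 0.05, and probe sets below the filter come from the fit without one. Both called probe sets of Ncam1 are filled in all 3 settings, Myog in 2, and Myf5 only without replicates 9 and 10.

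Myf5, the earliest of the 4 factors in the embryo and a factor of satellite cells in the adult, was dim. Its signals were 23.1 to 45.9 in wild type (mean 35.5 ± 8.28, SD, n = 9) and 30.2 to 104 in HSALR (58.6 ± 20.8, SD, n = 10), near background in both. In HSALR, 7 of 10 samples exceeded the wild-type range, and the lowest were replicates 10 and 9, at 30.2 and 34.5. In the fit without a filter, where 1.24% of 45037 probe sets were called higher and 0.866% lower, its log2 fold of 0.50 ± 0.15 did not pass (limma adjusted p = 0.086). The exact permutation test of this 1 probe set gave p = 0.0041 (2-sided, 1 of 8 such tests of member probe sets below the filter, n = 10 against 9). Without HSALR replicates 9 and 10 the log2 fold was 0.65 ± 0.13 and passed (limma adjusted p = 0.0107), as it did without replicate 10 alone (0.0346), with replicates 9 and 10 averaged (0.0428) and with array weights (0.0263). In all, it passed in 1 of 19 fits that left out 1 sample (limma adjusted p up to 0.156) and in 4 of 11 other alternatives (up to 0.173). It did not pass after quantile normalization, with centring, with the covariate or with the replicate block.

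Pax7, the marker of satellite cells, was near background at both of its probe sets. At 1452510_at the signals were 21.2 to 54.2 in wild type and 22.6 to 61.3 in HSALR (log2 fold 0.097 ± 0.14, limma adjusted p = 0.816 without a filter). At 1444596_at, HSALR replicates 2, 5, 6 and 8 read 45.3 to 74.3, while the other 6 HSALR samples read 7.09 to 15.4 and wild type 5.08 to 30.3. The second pattern was not shared by the first probe set, where HSALR replicate 5 was the lowest of its group at 22.6. The log2 fold at 1444596_at was 0.67 ± 0.26 (limma adjusted p = 0.226 without a filter, exact permutation p = 0.0339, 2-sided). Neither probe set of Pax7 thus passed in limma.

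**Figure D3:**
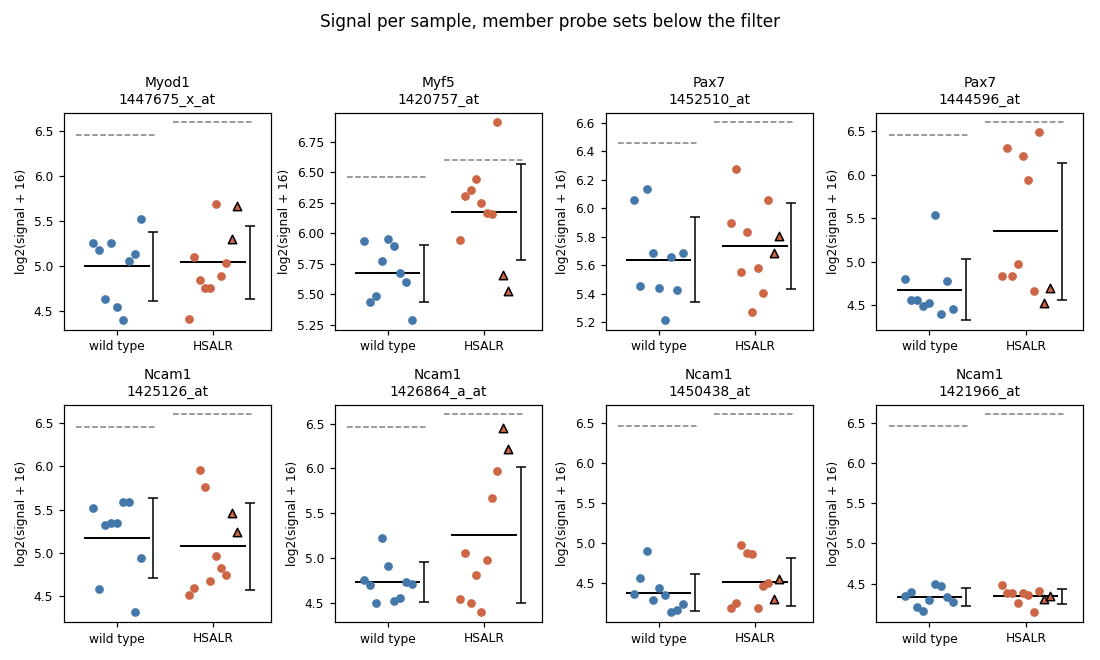
Signal of each sample as log2(signal + 16) at the 8 member probe sets below the filter, drawn as for the brighter ones, with the mean as a line, the SD as a bar, HSALR replicates 9 and 10 as triangles and the near-background levels dashed. The y axes differ between panels. All points but 1, Myf5 in HSALR replicate 8 at a signal of 104, lie under the dashed line of their own genotype; Myf5 is higher in HSALR apart from the triangles, and 4 HSALR samples stand apart at Pax7 1444596_at.

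The 2 samples that stood apart also had the highest summed signals of 4 of 6 lists of markers of other cells. The summed signal of 15 macrophage and monocyte markers reached 25089 and 28533 in HSALR replicates 9 and 10. The remaining 8 HSALR samples had 4417 to 12167, and wild type 5137 to 8584. For 11 fibroblast markers the sums were 79519 and 81554, with 18405 to 43111 in those 8 and 21962 to 40130 in wild type. For 9 nerve and Schwann cell markers the sums were 5536 and 3865, with 1726 to 3045 in those 8 and 1983 to 3573 in wild type, and with Ngfr and Gap43 near background in both genotypes. For 7 proliferation markers, 6 of which were near background in both genotypes (Mki67, Top2a, Cdk1, Birc5, Plk1 and Bub1), the sums were 637 and 533, with 132 to 289 and 163 to 298 in the others. The endothelial sums, 4898 and 4871, lay within the wild-type range of 3657 to 5812, and those of NK and T cells, 315 and 259, were below the highest HSALR sample at 359. In the same 2 samples Myod1 and Myf5 were the lowest of their genotype and Ncam1 at 1426865_a_at and 1426864_a_at the highest. The part of other cells in these member values was not tested.

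Between genotypes, these lists moved in part. Of 14 macrophage markers tested, Cd68 and Lgals3 rose (log2 folds 1.00 ± 0.24 and 1.27 ± 0.35, limma adjusted p = 0.0133 and 0.0347) and none fell. All 14 had a log2 fold above 0 (median 0.65), and 12 were higher at an unadjusted p under 0.05. After quantile normalization 5 passed, while 12 did with the mean 3'/5' ratio of actin and Gapdh in the model and 10 without HSALR replicate 5. Without HSALR replicates 9 and 10, 2 passed and the median was 0.33. Of 11 fibroblast markers Pdgfra rose (0.74 ± 0.20, limma adjusted p = 0.0276), but not without HSALR replicates 9 and 10 (log2 fold 0.53, limma adjusted p = 0.0735). By gene, 3.11% of 11533 genes rose and 2.31% fell. None of 7 tested nerve and Schwann cell markers passed in limma, with 0 at an unadjusted p under 0.05. Of 7 markers of NK and T cells on the array, 6 were near background in both genotypes. None of 10 endothelial markers passed, also with 0 at an unadjusted p under 0.05.

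**Figure D4:**
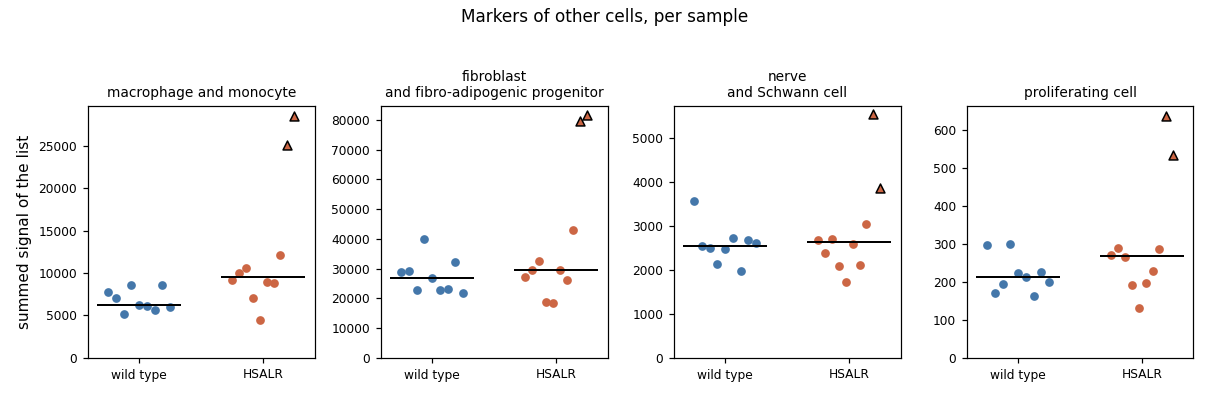
Summed linear signal of 4 marker lists (y axis, starting at 0, 1 probe set per gene) for each sample, with the group median as a line and HSALR replicates 9 and 10 as triangles. The triangles are the 2 highest of all 19 samples in each panel.

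The wider programme was followed in 5 fixed lists of 109 genes, 91 of which were tested through their brightest probe set. Of these 91, 7 rose (7.69%) and 1 fell (1.10%), against 3.11% and 2.31% of all 11533 genes, and the median log2 fold of all genes was 0.048. After quantile normalization 13 rose and 4 fell (14.3% and 4.40%), against 6.96% and 8.51% of all genes. Without HSALR replicate 5 alone, 13 rose, where 853 of 11533 genes did (7.40%). The lists were drawn up with earlier results of these samples known, so their counts are a description.

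Among 18 bHLH partners and inhibitors of the regulatory factors, 2 rose and 0 fell (1 lower at an unadjusted p under 0.05). For Mdfic, an inhibitor related to I-mfa that binds myogenic bHLH factors, the log2 fold was 0.49 ± 0.12 (limma adjusted p = 0.0174). Id4, an inhibitor that pairs with E proteins and cannot bind DNA, had 0.48 ± 0.13 (limma adjusted p = 0.0328), but its call was lost without HSALR replicates 9 and 10 (log2 fold 0.47, limma adjusted p = 0.0726), and its mean was near background in wild type. The E protein gene Tcf12 had 0.36 ± 0.14 and did not pass (limma adjusted p = 0.14; 0.0375 after quantile normalization). The other E protein genes, Tcf3 and Tcf4, had log2 folds of 0.15 ± 0.14 and 0.16 ± 0.12.

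Of 15 upstream and partner transcription factors, 0 rose (0 at an unadjusted p under 0.05) and 1 fell. This was Pax3, the relative of Pax7 that acts upstream of the regulatory factors in the embryo, with a log2 fold of -0.57 ± 0.15 (limma adjusted p = 0.0218). Its mean signal was 97.0 in wild type and 61.4 in HSALR, the latter near background, 6 of 10 HSALR samples lay below every wild-type sample, and the call was lost without HSALR replicates 9 and 10 (log2 fold -0.47, limma adjusted p = 0.0748). Mef2a, Mef2c and Mef2d, the partners of the regulatory factors at muscle promoters, had log2 folds of 0.093 ± 0.089, -0.058 ± 0.088 and -0.023 ± 0.10. Hdac9 and Dach2, repressors of Myog in innervated muscle, had 0.098 ± 0.13 and 0.061 ± 0.094, the latter near background.

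None of 20 satellite cell surface and signalling genes passed in limma as deposited, although at an unadjusted p under 0.05 there were 6 higher and 0 lower. After quantile normalization 4 were higher and 1 lower, against 6.96% and 8.51% of all genes. The 1 lower gene was Met, the receptor of hepatocyte growth factor, with -0.23 (limma adjusted p = 0.0457). The 4 higher were Chrdl2, Notch2, Fgfr4 and Sdc4, all 5 named after their values were seen, with limma adjusted p of 0.0405, 0.0131, 0.0309 and 0.0365. As deposited their log2 folds were 0.49 ± 0.15, 0.47 ± 0.16, 0.35 ± 0.12 and 0.42 ± 0.14. Itga7, the laminin receptor of satellite cells and fibres, had -0.097 ± 0.13. Chrdl2 was near background in both genotypes and passed the filter only through HSALR, with log2 means of 5.84 and 6.33.

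Of 19 genes of cell cycle exit, adhesion and fusion, 3 rose and 0 fell (0 lower at an unadjusted p under 0.05). For Nfatc2, a calcineurin-activated factor of myotube growth, the log2 fold was 1.03 ± 0.14 (limma adjusted p = 5.87e-05), and no HSALR sample overlapped the wild-type range. Cdkn1a, the cell cycle inhibitor p21 of differentiating myoblasts, had 0.99 ± 0.18 (limma adjusted p = 0.0014). Rb1, the retinoblastoma protein that holds myotubes out of the cell cycle, had 0.35 ± 0.096 (limma adjusted p = 0.0334), and its call was lost without HSALR replicates 9 and 10 at a log2 fold of 0.32. The fusion genes Mymk and Mymx were not among the tested genes.

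Of 19 targets of the factors in embryonic, regenerating or denervated muscle, 2 rose and 0 fell (0 lower at an unadjusted p under 0.05). For Mybph, a thick filament protein, the log2 fold was 3.43 ± 0.31 (limma adjusted p = 2.05e-07). For Ankrd1, a stress-induced ankyrin repeat protein, the log2 fold was 1.79 ± 0.28 (limma adjusted p = 3.50e-04). Of the acetylcholine receptor genes, some of which Myog activates in denervated fibres, 3 were tested and did not pass, while Chrnd and Chrng were not among the tested genes. Chrna1 had -0.14 ± 0.096, Chrnb1 had 0.23 ± 0.12 and Chrne had -0.18 ± 0.13. Musk, the receptor kinase of the junction, had 0.21 ± 0.15. The embryonic myosin Myh3 had 0.078 ± 0.17 and the perinatal myosin Myh8 had 0.61 ± 0.35 (limma adjusted p = 0.836 and 0.342).

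**Figure D5:**
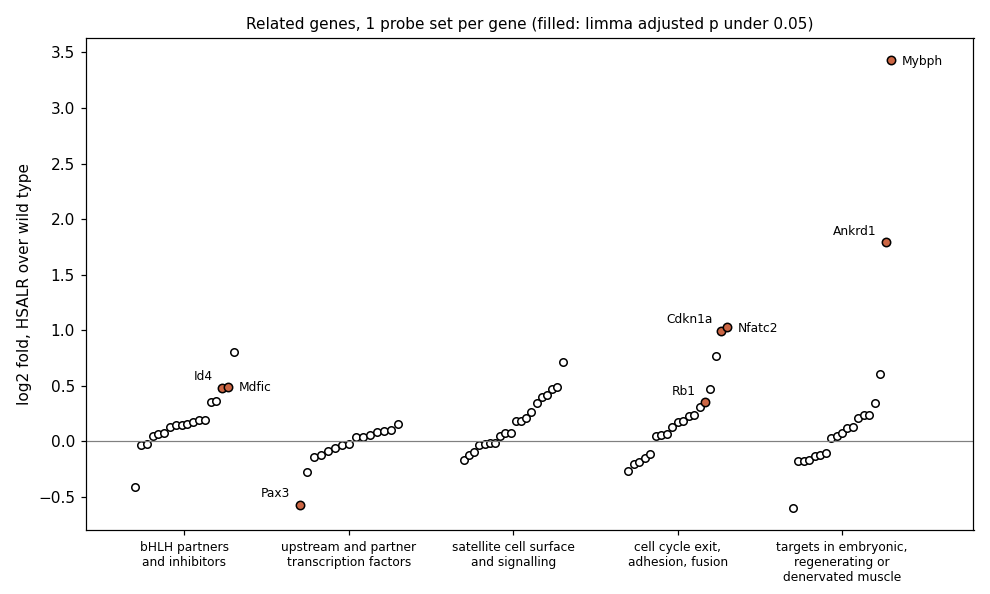
Log2 fold of HSALR over wild type (y axis) for the 91 tested genes of 5 lists (x axis), 1 point per gene; filled and named points passed limma at an adjusted p of 0.05. Mybph at 3.43 and Ankrd1 at 1.79 stand highest, Pax3 is the only named point below 0, and the satellite cell list has none.

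Samples of 1 genotype were also compared across members, as deviations from the group mean on the quantile-normalized scale over 19 samples. Of 21 pairs of members, each read at its brightest probe set, the pair of Myod1 and Myf5 passed (Pearson r = 0.75, permutation p = 0.0017, adjusted p = 0.0365), but not by rank (Spearman rho = 0.58, permutation p = 0.0164, adjusted p = 0.115). The 2 samples farthest from the median of Myod1 were HSALR replicates 9 and 10. Without them r was 0.48 with the deviations kept as they were, and 0.41 with the group means taken anew. The correlation thus rested on these 2 samples. Within wild type it was 0.38 (n = 9) and within HSALR 0.83 (n = 10). The 20 other pairs did not pass, with the largest r of these, 0.62, for Myf5 and Cdh15 (permutation p = 0.0144, adjusted p = 0.151; Spearman rho = 0.62, permutation p = 0.0085, adjusted p = 0.0889). Myog and Ncam1, which both rose, had an r of 0.088 (permutation p = 0.741, adjusted p = 0.865; Spearman rho = 0.12, permutation p = 0.627, adjusted p = 0.805).

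The genes whose pattern over the 19 samples was most like that of a member, among 11528 others, are given as a description, since they were picked as the highest of many and share the arrays. For Myog these were Sox17 (r = 0.80), A230070E04Rik (r = 0.77) and Furin (r = 0.76), and Sox17 stayed first without HSALR replicates 9 and 10 (r = 0.81). For Ncam1 at 1450437_a_at they were Nkrf (r = 0.82), Tmem135 (r = 0.75) and Slc22a4 (r = 0.74), and Nkrf stayed first (r = 0.83). For Myod1 they were Psmg2 (r = 0.91), Myh14 (r = 0.90) and Hspb2 (r = 0.89), which were 0.80, 0.73 and 0.72 without the 2 samples. For Myf6 they were Pdzd11 (r = 0.85), Ciao2b (r = 0.84) and Nup43 (r = 0.83), and for Cdh15 Hnmt (r = 0.82), Ipp (r = 0.82) and Cops3 (r = 0.81). None of the genes named for Myf6 and Cdh15 stayed among the first 3 without the 2 samples. Their ranks were then 7, 15 and 4 for Myf6 and 12, 10 and 5 for Cdh15.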

How the data were processed

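The authors deposited 1 linear signal intensity per probe set and array, and the submitters' processing notes name GCOS 1.4; for the algorithm, scaling target, build and filters the entry is: not given in the sources used here. Array medians ran from 39.7 to 71.9, and the scaling was kept as deposited. The 64 control probe sets were left out. Symbols came from the platform annotation, updated through Entrez identifiers for 34741 of 34945 probe sets with 1 symbol. The genotypes were tested against each other with limma 3.58.1 (R 4.3.3; lmFit and eBayes, 2-sided, Benjamini-Hochberg), tested on simulated data, and lists used 1 probe set per gene, the brightest tested. Permutation tests of 2 groups enumerated all 92378 splits, and correlations used 100000 permutations within genotype. Named genes were all members, up to 4 called genes per list with the smallest p and the 3 genes most like each tested member. The members and lists were chosen with earlier results of these data known. Quantile normalization, centring, pseudocounts of 1 and 64, filters, weights, a variance trend, a covariate, a replicate block and left-out samples were alternatives. Promoter windows of 4 members came from RefSeq (GRCm38.p6). Figures used matplotlib 3.10.9 in Python 3.11.15.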

Additional observations from a re-analysis of the deposited data

Results flagged for a closer look

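Of 30 groups of samples examined (15 member probe sets in 2 genotypes), 2 held a sample far from the others, where chance alone sets about 1 in 20 groups apart. At Pax7 1444596_at, wild-type replicate 6 read 30.3, with the next highest control at 11.9, and both values are near background. At Cdh15, HSALR replicate 1 read 106, with the next lowest HSALR sample at 148.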

How the results depend on the processing

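Over 13 alternatives, counting a filter only where it tested the probe set anew, 153 of 175 log2 folds of member probe sets kept their direction and side of the threshold, and 259 of 285 did when 1 sample was left out. The count of probe sets called higher (645 as deposited) was 1457 after quantile normalization, 1051 with arrays centred on their median, 2278 with array weights, 1705 with the 3'/5' ratio as covariate, 429 without HSALR replicates 9 and 10 and 1159 without them after quantile normalization; without 1 sample it ranged from 467 to 1562, the highest without HSALR replicate 5. The count called lower (495) was 1885, 1294 and 1309 after quantile normalization, with centring and with quantile normalization without replicates 9 and 10, and 383 to 670 without 1 sample. Member probe sets called higher (3) numbered 2 to 3 without 1 sample, 2 without a filter and 1 among the 11260 brightest, where 3 were tested. They also numbered 2 without HSALR replicates 9 and 10, as deposited and after quantile normalization, and 2 with these replicates averaged. Related genes called higher (7) numbered 13 after quantile normalization, 16 with array weights, 13 with the covariate and 5 to 13 without 1 sample. Those called lower (1) numbered 4 after quantile normalization, 0 among the brightest, 0 without replicates 9 and 10 and 3 without them after quantile normalization. The adjusted p for a difference between Ncam1 probe sets was 0.0089 after quantile normalization. The causes were not tested, apart from the smaller number tested among the brightest.

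Some folds that were not called changed sign. After quantile normalization these were Myf6 (-0.057) and Ncam1 1421966_at (-0.0070), and with centring Myf6 (-0.040), Ncam1 1421966_at (-0.036) and Myod1 1447675_x_at (-0.0017). With array weights they were Cdh15 (0.018) and Ncam1 1425126_at (0.0034), and with the covariate Myf6 (-0.023), Ncam1 1421966_at (-0.016) and Ncam1 1425126_at (0.037). Myod1 1447675_x_at had -0.063 without HSALR replicates 9 and 10, -0.074 without them after quantile normalization, and -0.0024 with them averaged. Without 1 sample the folds spanned -0.063 to 0.031 for Cdh15, -0.023 to 0.047 for Myf6, -0.0086 to 0.034 for Ncam1 1421966_at and -0.028 to 0.12 for Myod1 1447675_x_at. The call of Myog was also lost without a filter (limma adjusted p = 0.0683) and with replicates 9 and 10 averaged (0.0559).

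Sample numbers 1 to 9 occur in both genotypes. Deviations of same-numbered samples correlated between -0.24 and 0.13, and 4 of 18 samples correlated best with their own number (2 after quantile normalization). The labels give no link between same-numbered samples, and these correlations cannot settle whether there is one. With the replicate block, which leaves out HSALR replicate 10, 409 probe sets were called higher and 307 lower, the log2 fold of Myog was 0.80 (limma adjusted p = 0.014) and that of Myod1 1447675_x_at -0.023. The number of arrays and signals near the receptor background limit what can be seen of Myf5, Pax7 and the dim Ncam1 probe sets.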
